A study of Mus musculus with 76 samples.

Results

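The 7 genes described here encode transcription factors that select the GABAergic fate in the caudal diencephalon, the part of the forebrain that gives rise to the thalamus and the pretectum. They are Gata2, Gata3, Tal1, Tal2, Nkx2-2, Sox14 and Helt, a list drawn up from their known roles in rostral thalamus and pretectum, and they are 7 of the 56923 genes in the count tables. RNA was counted in diencephalon at E11.5 and E17.5 (embryonic day of development), and peaks of H3K4me3, H3K27ac and H3K27me3 at both stages and of CTCF at E17.5 were examined within 2 kb of the start of each gene. The study asked what changes when hs754, a 5.5-kb human sequence between Irx1 and Irx2, takes the place of its mouse counterpart on chromosome 13.

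All embryos were C57BL/6J mice. Humanized embryos came from crosses of animals homozygous for the human sequence and wild type embryos from crosses of animals homozygous for the mouse sequence, so every humanized sample carried the replacement on both copies and every wild type sample on neither. The humanized mice are one edited line, backcrossed to C57BL/6J for several generations, and no transgene or Cre was used. Each RNA group held 4 replicates. A replicate was a pool from 1 litter, of 6 embryos at E11.5 and of 3 at the later stage. Stage is therefore tied to the number of pooled embryos as well as to age, and their effects cannot be told apart. For each histone mark the E11.5 samples gave 4 peak lists, 2 per genotype, and the E17.5 samples 6, 3 per genotype. CTCF had 6 lists, all from E17.5.

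GATA2 and GATA3 are zinc finger factors, and TAL1 and TAL2 are basic helix-loop-helix (bHLH) factors that pair with the E proteins TCF3, TCF4 and TCF12 and bind E-box sites. In blood cells these families work in one complex, bridged by LMO and LDB1 proteins. In the embryonic brain they switch on in newly born neurons of the midbrain, the pretectum and the rostral thalamus, where Gata2 and Tal2 are known to be required for the GABAergic fate and Gata3 and Tal1 follow them. HELT is a bHLH-Orange repressor of GABAergic progenitors, NKX2-2 a homeodomain factor of progenitors next to the zona limitans that also works in oligodendrocyte precursors, and SOX14 an HMG-box factor of GABAergic neurons of the rostral thalamus. Tal1 and Gata2 are also used by blood and endothelial cells, and bulk tissue cannot tell fewer cells of a type from less RNA per cell.

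The genes lie apart in the mouse genome (mm39). Gata2 is at chr6:88170559-88184018, Gata3 at chr2:9861889-9894845, Tal1 at chr4:114913623-114928952, Tal2 at chr4:53779467-53795809, Nkx2-2 at chr2:147019466-147036163, Sox14 at chr9:99756159-99758223 and Helt at chr8:46745076-46747708. None lies on chromosome 13. Counts were taken without regard to strand. All but Helt overlap another annotated gene, on the opposite strand in each case at least once (Spehd, Gata3os, Gm33786, Rps15a-ps8, Nkx2-2os and Gm67910). In the column for the opposite strand each selector had 0 to 9 counts per sample, so few reads there came from that strand. Gata3 and Tal1 also overlap genes on their own strand, whose reads strand cannot tell apart. In the column for the strand of the gene, Gata3 had 1.05 to 1.15 times and Nkx2-2 1.05 to 1.17 times the count used here. A gene's start was taken as the 5′ end of its annotated span. The start of the Ensembl canonical transcript lies there for Sox14 and Helt, 238 bases further in for Tal2, and 3082, 4754, 7839 and 11394 bases further in for Tal1, Gata2, Nkx2-2 and Gata3.

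The 250 bases upstream of the starts of Tal2, Sox14 and Helt are shown first, because the marks at these starts changed in different ways with stage. None of these windows overlaps an annotated exon. CpG dinucleotides are in capitals, and each sequence runs 5′ to 3′ on the strand of its gene.
Tal2, upstream window at chr4:53779217-53779466, plus strand: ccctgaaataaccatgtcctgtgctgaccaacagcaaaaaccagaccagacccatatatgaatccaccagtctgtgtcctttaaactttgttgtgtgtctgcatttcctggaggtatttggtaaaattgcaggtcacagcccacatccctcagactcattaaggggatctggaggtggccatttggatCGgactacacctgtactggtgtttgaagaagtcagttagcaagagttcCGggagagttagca
Sox14, upstream window at chr9:99758224-99758473, minus strand: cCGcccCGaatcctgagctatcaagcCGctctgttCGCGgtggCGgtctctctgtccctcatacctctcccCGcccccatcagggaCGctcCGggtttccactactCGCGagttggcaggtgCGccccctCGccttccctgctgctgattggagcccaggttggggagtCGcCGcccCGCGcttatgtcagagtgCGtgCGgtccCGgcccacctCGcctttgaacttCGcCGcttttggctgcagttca
Helt, upstream window at chr8:46747709-46747958, minus strand: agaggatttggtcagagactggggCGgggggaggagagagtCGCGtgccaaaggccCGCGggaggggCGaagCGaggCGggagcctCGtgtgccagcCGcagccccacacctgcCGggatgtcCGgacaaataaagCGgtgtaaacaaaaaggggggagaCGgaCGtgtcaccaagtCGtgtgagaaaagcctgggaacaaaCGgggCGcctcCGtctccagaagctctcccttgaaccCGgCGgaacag
The Tal2 window holds 2 CpGs, the Sox14 window 23 and the Helt window 21. Within 500 bases of the start, 5 of the 7 genes had at least 50% G or C together with at least 0.6 times as many CpGs as their base composition predicts, against 40.5% of all protein-coding starts. The exceptions were Gata3 (ratio 0.481) and Tal2 (0.527), and the highest ratios were those of Tal1 (0.804) and Helt (0.735). This depended on the start used. Around the canonical start 5 of the 7 passed as well, against 46.1% of all such starts, but the exceptions were Tal1 (0.512) and Tal2 (0.441). Gata3 (0.620) passed there.

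3 further sequences come from H3K27ac regions away from any protein-coding start that were called in every E11.5 list and in no E17.5 list, the only regions of this kind within 100 kb of the 7 starts. Each window reaches 100 bases either side of the summit of the strongest peak of its region, none overlaps an annotated exon, and E-boxes (CANNTG, the site bound by bHLH factors) are in capitals.
Tal2, region centred 3364 bases into the gene from its start, chr4:53782353-53782553, plus strand: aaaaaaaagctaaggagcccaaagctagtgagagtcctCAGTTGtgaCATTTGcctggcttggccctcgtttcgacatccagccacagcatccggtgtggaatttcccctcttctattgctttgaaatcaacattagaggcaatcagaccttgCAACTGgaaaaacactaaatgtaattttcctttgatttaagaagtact
Helt, region centred 36656 bases from the start on the downstream side, chr8:46710876-46711076, plus strand: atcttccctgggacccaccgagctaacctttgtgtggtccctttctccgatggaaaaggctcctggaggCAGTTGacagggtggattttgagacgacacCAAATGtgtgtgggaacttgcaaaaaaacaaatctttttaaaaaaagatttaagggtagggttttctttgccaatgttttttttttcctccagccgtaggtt
Gata2, region centred 42610 bases from the start on the downstream side, chr6:88213424-88213624, plus strand: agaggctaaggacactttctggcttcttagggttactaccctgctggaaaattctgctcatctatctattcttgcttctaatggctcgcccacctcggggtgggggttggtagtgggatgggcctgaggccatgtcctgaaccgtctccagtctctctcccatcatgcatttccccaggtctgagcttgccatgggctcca
The Tal2 window holds 3 E-boxes, the Helt window 2 and the Gata2 window 0. The GATA letters GATAA, searched on both strands, are in none of the 3. Of 80727 summit windows of the same length in distal H3K27ac regions genome-wide, 68.5% hold an E-box and 22.2% hold GATAA, and of the 1641 called in every E11.5 list and no E17.5 list 69.9% and 19.9% do. Neither the presence nor the absence of these letters was tested against binding.

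RNA libraries held 16414369 to 24272569 counts on genes. One library stood apart, replicate 1 of the E17.5 wild type group. Its genes deviated from their group mean by 0.738 on the log2 scale (root mean square), against 0.120 to 0.326 in the other 15. Markers of several cell types were also higher in it than in the other 7 E17.5 samples. Levels are in CPM, counts scaled by the gene counts of each library and by a factor for that library (TMM, edgeR). The factor was 0.886 in the library that stood apart and at most 1.06, so scaled totals differ between libraries. The summed level was 1032 CPM against 242 to 523 for 12 erythroid markers and 482 against 271 to 340 for 10 endothelial markers. For 14 progenitor regulators the level in this library was 609 against 385 to 446. The 7 selectors summed to 103 CPM in it against 50.8 to 67.0. It was kept, and values that rest on it are given with and without it. All 12 markers of the diencephalon were present in E11.5 wild type samples, with means from 11.9 CPM for Foxb1 to 1043 CPM for Tcf7l2.

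At E11.5 Tal2 was the most abundant of the 7 per kilobase of annotated exon, and by E17.5 it and Helt were close to absent. In E11.5 wild type samples the levels per kilobase were 48.2 ± 11.52 CPM for Tal2 (SD, n = 4 here and below), 14.0 ± 0.549 for Tal1, 11.6 ± 1.30 for Nkx2-2, 7.75 ± 1.40 for Gata3, 7.15 ± 0.791 for Gata2, 4.99 ± 0.390 for Helt and 4.71 ± 1.18 for Sox14. The ranges of Gata3 and Gata2 overlapped, as did those of Helt and Sox14, and each other neighbour in this order was separate. At E17.5 the order in wild type samples was Nkx2-2 (8.82 ± 3.91), Tal1 (3.87 ± 1.26), Sox14 (3.54 ± 1.39), Gata3 (3.23 ± 0.572), Gata2 (1.04 ± 0.323), Tal2 (0.356 ± 0.136) and Helt (0.0434 ± 0.0869). Tal1, Sox14 and Gata3 overlapped here. Humanized samples had Tal2 highest at E11.5 (37.8 ± 11.6) and Nkx2-2 highest at E17.5 (7.14 ± 0.780), again per kilobase.

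**Figure D1:**
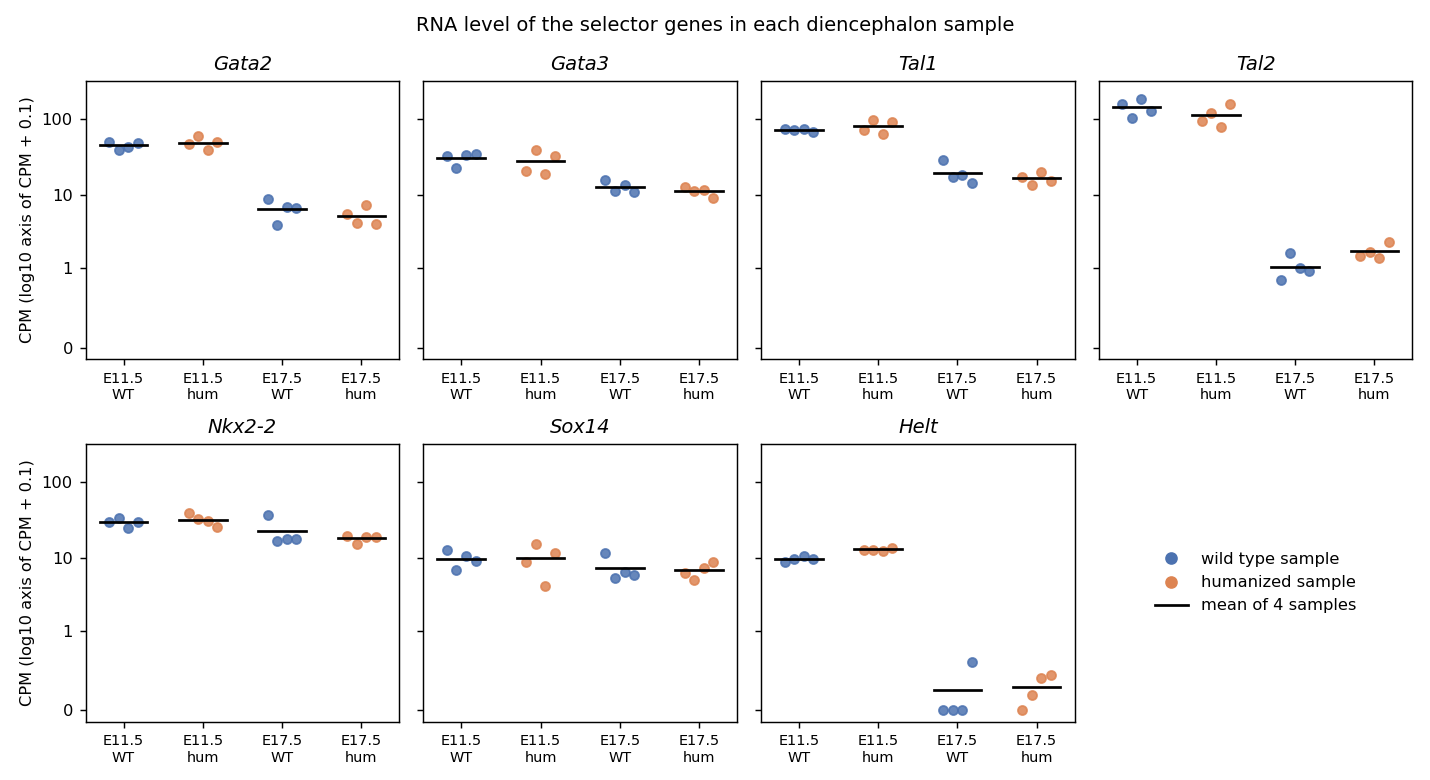
RNA level of each selector gene in each of the 16 diencephalon samples, in CPM on a log10 axis of CPM + 0.1, by stage and genotype (WT, wild type; hum, humanized). Points are samples and bars are means of 4 samples. Tal2 lies between 77.7 and 182 CPM in all E11.5 samples and between 0.680 and 2.36 CPM in all E17.5 samples, and Nkx2-2 in E17.5 wild type replicate 1 (37.0 CPM) sits apart from the other E17.5 samples.

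The stage comparison asks how the selectors change between the period when these neurons are born and late gestation. Of the 7 genes, 5 fell in wild type mice (edgeR, adjusted p under 0.05 over all genes), and 6 fell in humanized mice. None rose in either genotype. A fall with stage was common: 26.7% of 18583 genes tested fell and 29.0% rose in wild type mice, and 39.5% of 18781 fell and 38.2% rose in humanized mice. The median log2 change over the 7 genes was -1.87 in wild type and -2.30 in humanized mice, against -0.01 and -0.04 over all genes tested.

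Tal2 and Helt fell the furthest of the 7, Tal2 ahead in wild type and Helt in humanized mice by the fitted changes, and the order of the pair was not tested. Tal2 levels were 158, 104, 182 and 129 CPM in E11.5 wild type replicates 1 to 4 and 94.3, 120, 77.7 and 157 CPM in E11.5 humanized replicates. At E17.5 they were 0.680, 1.63, 0.995 and 0.927 CPM in wild type and 1.49, 1.70, 1.41 and 2.36 CPM in humanized replicates, from 13 to 37 counts per sample. Every E11.5 sample was thus far above every E17.5 sample in both genotypes. The log2 change was -7.09 (SE 0.34, edgeR adjusted p = 3.12e-07) in wild type and -6.04 (SE 0.28, adjusted p = 3.23e-09) in humanized mice. As a ratio of mean CPM, E11.5 was 135-fold higher than E17.5 in wild type mice, where the 85 counts at E17.5 give a 95% counting interval of 109 to 169, and 64.6-fold higher in humanized mice (interval 53.9 to 78.0). Such intervals cover counting error only.

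Helt is the bHLH-Orange gene of GABAergic progenitors. Its E11.5 levels were 8.77, 9.65, 10.6 and 9.73 CPM in wild type and 12.8, 12.7, 12.3 and 13.6 CPM in humanized replicates. At E17.5 it had 0, 0, 0 and 8 counts in wild type replicates and 0, 1, 3 and 3 in humanized replicates. A count of 0 allows up to 3 counts, so presence at such levels was not detectable at this depth. The ratio of mean CPM was 115 in wild type (counting interval 58.4 to 266) and 122 in humanized mice (59.3 to 304). The fitted log2 changes were -6.58 (SE 0.66, adjusted p = 1.58e-05) and -6.90 (SE 0.34, adjusted p = 5.10e-09).

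The pair of GATA factors fell to different extents. Gata2 had 49.4, 38.99, 43.1 and 48.95 CPM in E11.5 wild type and 46.5, 60.0, 39.7 and 50.0 CPM in E11.5 humanized replicates. At E17.5 it had 8.89, 3.91, 6.82 and 6.70 CPM in wild type and 5.49, 4.19, 7.25 and 4.14 CPM in humanized replicates. The stages did not overlap, and the log2 change was -2.79 (SE 0.25, adjusted p = 7.32e-06) in wild type and -3.23 (SE 0.20, adjusted p = 2.90e-08) in humanized mice. Gata3, which follows Gata2 in these neurons, had 32.3, 22.6, 33.5 and 35.0 CPM in E11.5 wild type and 20.7, 39.3, 18.7 and 32.6 CPM in E11.5 humanized replicates. At E17.5 it had 15.8, 11.4, 13.5 and 10.8 CPM in wild type and 12.8, 11.3, 11.6 and 9.05 CPM in humanized replicates. The groups again did not overlap, with log2 changes of -1.28 (SE 0.21, adjusted p = 0.000448) and -1.33 (SE 0.23, adjusted p = 0.000204). At E17.5 the mean of Gata2 was 14.6% of its E11.5 mean in wild type and 10.7% in humanized mice, and that of Gata3 was 41.7% and 40.2%.

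Tal1, the relative of Tal2 that is also a blood and endothelial factor, had a change between those of Gata3 and Gata2. Its E11.5 levels were 73.7, 72.7, 73.4 and 67.7 CPM in wild type and 71.3, 97.8, 63.4 and 91.9 CPM in humanized replicates. Its E17.5 levels were 29.1, 17.2, 18.6 and 14.3 CPM in wild type and 17.4, 13.6, 20.3 and 15.4 CPM in humanized replicates. Even the highest E17.5 sample, wild type replicate 1, was below every E11.5 sample. The log2 change was -1.87 (SE 0.23, adjusted p = 5.64e-05) in wild type and -2.30 (SE 0.17, adjusted p = 1.55e-07) in humanized mice.

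Erythroid markers moved in the same direction as Tal1 and Gata2. Their summed level was 1395 to 3007 CPM in E11.5 wild type and 2379 to 4611 CPM in E11.5 humanized samples, and 242 to 1032 and 297 to 523 CPM at E17.5. Of 12 erythroid markers, 7 fell and 1 rose in wild type mice, and 10 fell and 1 rose in humanized mice. The embryonic globin Hbb-y led with log2 changes of -13.89 and -13.15, while the adult globin Hbb-bs rose by 5.06 and 4.36. Gata1, the erythroid GATA factor, averaged 2.98 and 5.24 CPM at E11.5 in wild type and humanized samples, far under Gata2 and Tal1 in the same libraries, and 0.0497 and 0.0159 CPM at E17.5. The part of blood RNA in the falls of Tal1 and Gata2 was not tested. Endothelial markers changed less, with 1 of 10 lower and 2 higher in wild type mice and 5 lower and 2 higher in humanized mice.

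Nkx2-2 and Sox14 had the smallest changes. In wild type mice neither passed the test with all libraries, and both did without 1 of them. Nkx2-2 had 29.4, 32.9, 24.98 and 29.6 CPM in E11.5 wild type and 38.99, 32.4, 30.3 and 25.7 CPM in E11.5 humanized replicates. At E17.5 it had 37.0, 16.4, 17.8 and 17.8 CPM in wild type and 19.0, 15.0, 18.9 and 19.0 CPM in humanized replicates. Humanized stages did not overlap, and Nkx2-2 fell there by 0.83 on the log2 scale (SE 0.14, adjusted p = 0.000155). Wild type stages overlapped because replicate 1 was the highest of all wild type samples, and the log2 change of -0.40 (SE 0.27) did not pass (adjusted p = 0.223, 95% confidence interval -1.06 to 0.25). Without that library it was -0.78 (adjusted p = 0.000213).

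Sox14 had 12.6, 6.84, 10.6 and 8.92 CPM in E11.5 wild type and 8.71, 15.0, 4.24 and 11.4 CPM in E11.5 humanized replicates. At E17.5 it had 11.6, 5.33, 6.52 and 5.86 CPM in wild type and 6.24, 4.98, 7.37 and 8.73 CPM in humanized replicates. The stages overlapped in both genotypes. The log2 change was -0.42 (SE 0.29, adjusted p = 0.237, interval -1.13 to 0.29) in wild type and -0.55 (SE 0.31, adjusted p = 0.128, interval -1.32 to 0.22) in humanized mice. Without E17.5 wild type replicate 1 the wild type value was -0.74 (adjusted p = 0.00618), and without E11.5 humanized replicate 3, the sample with the lowest Sox14, the humanized value was -0.82 (adjusted p = 0.00637). With no filter on low counts the humanized value was -0.61 (adjusted p = 0.0151). The other 5 genes were past the threshold in wild type mice with and without E17.5 replicate 1, at -2.97 for Gata2, -1.40 for Gata3, -2.13 for Tal1, -6.95 for Tal2 and -6.21 for Helt without it.

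**Figure D2:**
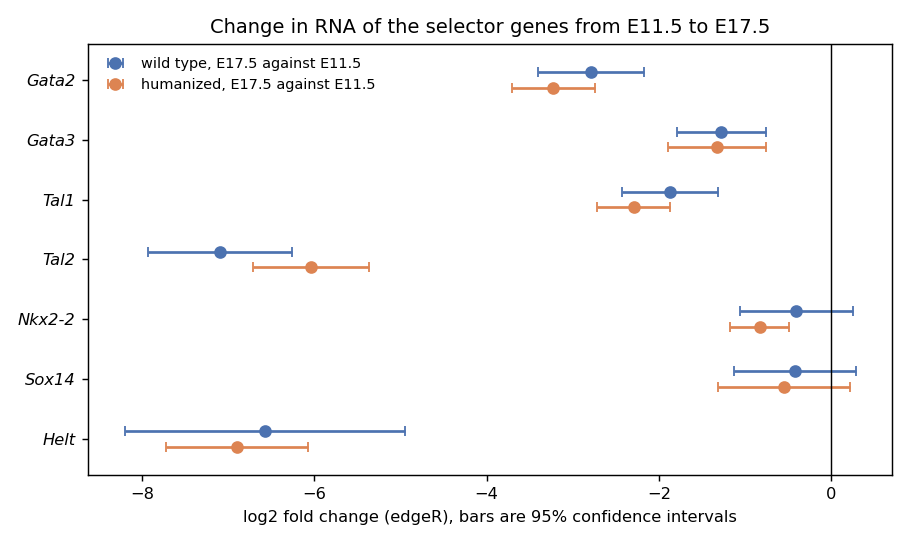
Log2 fold change in RNA from E11.5 to E17.5 for each selector gene by edgeR, in wild type and humanized mice. Points are fitted values and bars are 95% confidence intervals. The intervals of Gata2, Gata3, Tal1, Tal2 and Helt lie below 0 in both genotypes, that of Nkx2-2 lies below 0 in humanized mice alone, and that of Sox14 reaches past 0 in both.

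Genes for what GABAergic neurons make went the other way. All 8 genes of a GABAergic output list rose in both genotypes, among them Gad1, which makes GABA (log2 change 3.39 in wild type and 3.77 in humanized mice), Nos1 (2.91 and 2.97) and the neuropeptide gene Npy (4.34 and 4.32). The list is not limited to neurons of the Gata and Tal lineage, since prethalamic neurons make GABA too, and of 8 prethalamus genes 6 rose and 0 fell in each genotype, with Isl1 (3.62 and 3.91), Dlx6 (2.28 and 2.79) and Dlx1 (1.54 and 1.55) in the lead. Of 14 upstream and progenitor regulators, 12 fell in wild type and 13 in humanized mice. Pax3 fell by 4.23 and 3.70 on the log2 scale, Shh, the signal of the zona limitans, by 3.71 and 4.04, and Bhlhe23 by 3.61 and 3.66. Six3, a homeobox gene, rose by 1.31 and 1.03, the only gene of that list to rise in either genotype.

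Of 14 genes for proteins that work with GATA and TAL factors or are related to them, 8 fell and 3 rose in wild type mice, and 9 fell and 5 rose in humanized mice. The E protein genes did not move together: Tcf3 fell by 2.45 and 3.13 and Tcf12 by 2.04 and 1.53, while Tcf4 was 0.45 (adjusted p = 0.119) in wild type and rose by 0.87 in humanized mice. The bridging gene Ldb2 rose by 2.32 and 2.65, and Nhlh1, a neuronal bHLH gene related to the Tal genes, fell by 5.20 and 5.82. In the neighbouring caudal thalamus, whose neurons are glutamatergic, 4 of 9 list genes fell in each genotype, and 3 rose in wild type and 5 in humanized mice. Olig3 (-6.31 and -6.39), Neurog1 (-6.23 and -6.90) and Neurog2 (-4.10 and -3.91), all progenitor genes, were the steepest falls of that list, and Rora, a gene of thalamic neurons, rose by 4.69 and 5.61.

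Markers of cells that the dissected tissue could also hold were counted in the same fits. Of 8 oligodendrocyte lineage genes 7 rose and 1 (Nkx6-2) fell in each genotype, led among those that rose by Sox10 (4.30 and 3.50) and Olig1 (3.06 and 2.61), and their summed level went from 108 to 134 CPM in the E11.5 samples to 214 to 323 CPM at E17.5, where replicate 1 of wild type was again the highest. NKX2-2 is made in that lineage as well, and its part in the Nkx2-2 level at E17.5 was not tested. Of 8 telencephalon genes 5 rose and 2 fell in each genotype. Of 8 midbrain genes only 4 passed the filter on low counts, and of these 1 fell in wild type and 2 in humanized mice. Of 9 microglia and mast cell genes 6 were tested, with 2 higher in both genotypes and 2 lower in humanized mice alone. Of 12 genes of the diencephalon list 6 fell and 1 rose in wild type mice, and 6 fell and 4 rose in humanized mice.

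The genotype comparison asks whether humanizing hs754 alters these genes. No selector passed the test at either stage. By edgeR the E11.5 comparison called 0 of 17816 genes (0%) and the E17.5 comparison 0 of 18763 (0%), with 1058 and 207 at an unadjusted p under 0.05, and DESeq2 called 2 and 1, none of them a selector. The counts at an unadjusted p under 0.05 depended on single libraries. At E11.5 they ran from 401 without wild type replicate 3 to 3937 without wild type replicate 2 and 3963 without humanized replicate 4, and at E17.5 from 82 without humanized replicate 2 to 750 without wild type replicate 2, with 717 under the replicate block. The interaction of genotype and stage was called for 0 of 20234 genes (0%), with 1610 at an unadjusted p under 0.05 (688 to 3749 with 1 library left out) and 0 by DESeq2. In data simulated from these counts edgeR called 68.8% of genes changed 2-fold at E11.5, 7.81% at E17.5 and 6.25% for the interaction, so most 2-fold changes were not detectable at E17.5 or in the interaction.

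At E11.5 the log2 difference of humanized against wild type was 0.10 (95% confidence interval -0.25 to 0.44) for Gata2, -0.17 (-0.76 to 0.42) for Gata3, 0.15 (-0.19 to 0.49) for Tal1 and -0.37 (-0.94 to 0.19) for Tal2. It was 0.10 (-0.24 to 0.43) for Nkx2-2 and 0.00 (-0.79 to 0.79) for Sox14. Helt was the single selector whose groups did not overlap, and the share of all genes that split in this way was not counted. All 4 humanized samples, at 12.3 to 13.6 CPM, were above all 4 wild type samples, at 8.77 to 10.6 CPM, and their means were 12.8 ± 0.546 and 9.69 ± 0.758 CPM. The log2 difference was 0.38 (SE 0.11, interval 0.10 to 0.66, edgeR adjusted p = 0.577). Before adjustment its edgeR p was 0.00674. It therefore failed the correction over all genes, also with each replicate left out and in each other setting, where the adjusted p was between 0.211 and 0.974 and the difference between 0.34 and 0.43. Erythroid markers were also higher in the humanized samples of this stage, by a median log2 difference of 0.67 with 0 of 12 called, and their part in the genotype values was not tested.

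At E17.5 the differences were -0.33 (interval -1.04 to 0.38) for Gata2, -0.21 (-0.70 to 0.28) for Gata3, -0.26 (-0.86 to 0.34) for Tal1, -0.31 (-0.98 to 0.36) for Nkx2-2 and -0.11 (-0.82 to 0.60) for Sox14. Much of these came with wild type replicate 1, and without it they were -0.15, -0.09, -0.00, 0.05 and 0.20. Tal2 was 0.71 (SE 0.35, interval -0.14 to 1.56, unadjusted p = 0.0652, adjusted p = 0.808) and 0.55 without that library. These Tal2 values rest on 85 counts over the wild type and 118 over the humanized samples. Helt was too low to be tested at E17.5, and with no filter its difference was 0.16 (adjusted p = 0.979). For Tal2 the genotype difference pointed in opposite directions at the 2 stages, and the interaction was 1.07 (SE 0.39, unadjusted p = 0.0147, adjusted p = 0.462). Across all alternatives it ranged from 0.89 to 1.33, with an adjusted p of 0.272 to 0.783.

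**Figure D3:**
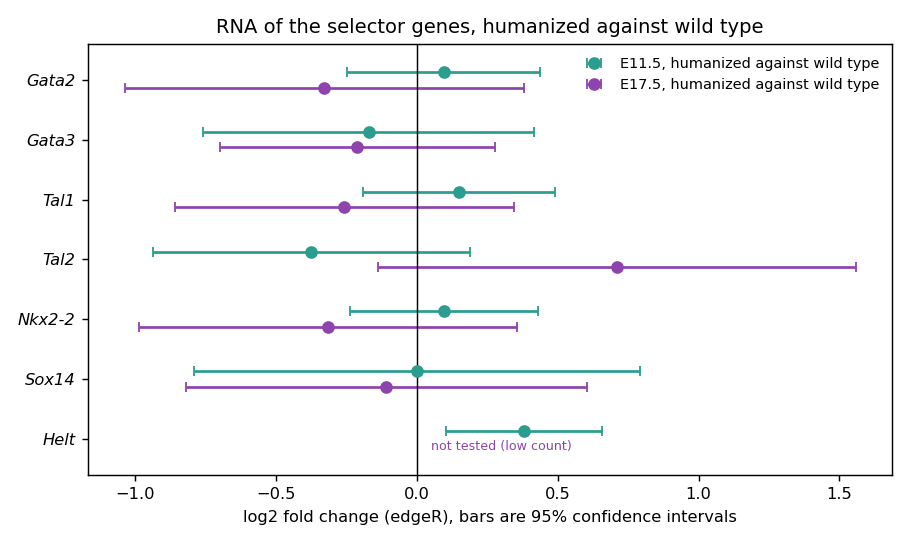
Log2 fold change in RNA of humanized against wild type mice for each selector gene by edgeR, at E11.5 and at E17.5. Points are fitted values and bars are 95% confidence intervals. At E11.5 the interval of Helt (0.10 to 0.66) lies above 0, and each other interval at either stage includes 0.

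Within E11.5, several selectors lay above or below their group means in the same samples. Humanized replicate 3 was the lowest of its group in Gata2, Gata3, Tal1, Tal2 and Sox14, and wild type replicate 2 was the lowest of its group in Gata2, Gata3, Tal2 and Sox14. Over the 8 E11.5 samples, the deviations of these 5 genes from their group means had pairwise Pearson r between 0.59 (Gata2 and Tal2) and 0.90 (Gata2 and Gata3). Those of Nkx2-2 with the same 5 genes lay between -0.69 and -0.08, and those of Helt between -0.08 and 0.46. The summed GABAergic output genes were likewise lowest in humanized replicate 3 and wild type replicate 2, at 72.03, 98.9, 60.2 and 93.4 CPM in humanized and 113, 83.0, 116 and 96.9 CPM in wild type replicates, beside 293, 377, 246 and 382 CPM and 364, 287, 379 and 329 CPM for the sum of the 7 selectors. Other regional lists moved in these samples too. Humanized replicate 3 was also lowest in summed caudal thalamus genes (1049 CPM against 1454 to 1553 in its group) and diencephalon markers (1466 CPM), and wild type replicate 2 was highest of its group in prethalamus genes (159 CPM against 81.8 to 118). The likeness of the 5 genes did not hold for Tal2 at E17.5. Over the 8 samples of that stage its r with the others of the 5 was -0.92 to -0.42, from 13 to 37 Tal2 counts per sample. Among those others r was 0.34 to 0.80. These are descriptions of pooled samples, 8 at each stage, and where each dissection ended was not tested.

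Over all 16 samples, the genes whose deviations were most like those of each selector were Haghl for Gata2 (r = 0.90), Gm11738 for Gata3 (0.90), Asic4 for Tal1 (0.93), Gm2379 for Tal2 (0.91), Atg4b for Nkx2-2 (0.98), Tspyl4 for Sox14 (0.92) and Gm12387 for Helt (0.87). The last value comes from E17.5, where Helt had 0 to 8 counts, since over the 8 E11.5 samples alone r was 0.13. The genes whose levels over the 16 samples were most like the mean pattern of the 7 were Klhl35, Scrt2, Irx2, Insm1 and Dusp10, with r of 0.98 to 0.99. Irx2 flanks hs754, and its level was lower at E17.5 (log2 change -1.87 in wild type and -2.13 in humanized mice). These likenesses carry the deviations of E17.5 wild type replicate 1.

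At the starts of the 7 genes H3K27me3, the mark of Polycomb repression, and H3K4me3, the mark of promoters, were found together throughout. Both had a peak within 2 kb of the start of all 7 genes in all 10 lists. By fold enrichment the H3K4me3 peaks stood only at the 2.45 to 56.6 percentile of their lists. Among the low ones were those of Helt at E17.5 (2.45 to 23.1 percentile), Gata3 at E17.5 (8.74 to 25.2) and Sox14 at E11.5 (11.9 to 29.5). Of 20937 protein-coding genes outside chromosome 13, 16.1% had an H3K27me3 peak in every list, 60.5% an H3K4me3 peak and 14.0% both. With both marks in every list, the presence test by stage could not call a selector. It called no gene for either mark (0% of 7280 for H3K27me3 and 0% of 13432 for H3K4me3, two-sided Fisher's exact test, with 1067 and 293 at an unadjusted p under 0.05). With stricter H3K27me3 peaks 621 of 4440 genes were called, none of them a selector. Whether the marks share cells cannot be told from lists of the whole tissue.

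The H3K27me3 peaks were wide. The widest peak at the start spanned 30377 to 32513 bases in the E11.5 lists and 34128 to 36891 in the E17.5 lists for Gata3, while the median peak of a list was 952 to 1563.5 bases wide. Those of Gata2, Tal1, Nkx2-2 and Sox14 had medians of 20072 to 29581 bases over the lists of a stage, and those of Helt 11593 and 11305. Peaks at these 6 genes stood at the 95.9 to 99.9 percentile of their lists by fold enrichment. Tal2 had the weakest H3K27me3 of the 7, with 4.82 to 7.19 times the local background at E11.5 (78.3 to 87.9 percentile) and 6.26 to 8.91 at E17.5 (92.0 to 97.3 percentile). The mark covered all 4001 bases around 6 starts in every list and 3595 to 4001 bases around that of Tal2 at E11.5, so this window could not show a change at those 6. By an exact permutation test over lists 27.8% of 7280 genes and 0 of 7 selectors were called, and leaving out any 1 list except E17.5 wild type replicate 1 left 0 genes called. Within 5 kb, where the window was not filled at Tal2, its coverage went from 7263 to 8333 bases at E11.5 up to 8565 to 9383 at E17.5 (adjusted p = 0.0289), and no other selector was called. Within 10 kb the H3K27me3 coverage of Tal2 went the other way, from 13662 to 17641 bases at E11.5 down to 9196 to 13472 at E17.5. The stages did not overlap there, and this window was not tested for H3K27me3.

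H3K27ac, the mark of active promoters and enhancers, was called at the starts of Gata2, Tal1 and Nkx2-2 in every list, as at 43.5% of genes. These 3 thus had all 3 marks in every list, which 3.66% of genes did. The antibody lot also binds H2B acetylated at lysine 5, so the lists may hold both. Tal2 had H3K27ac at its start at the early stage alone. A peak was called in 4 of 4 E11.5 lists, 6.80 to 7.71 times the local background and 1121 to 1848 bases wide, and in 0 of 6 E17.5 lists. Of all genes 0.459% showed this pattern and 4.55% the opposite one, which no selector did. The two-sided Fisher's exact test for Tal2 gave p = 0.00476, the smallest it can give with 4 against 6 lists, and an adjusted p of 0.0584, and it called no gene at all (0% of 12857, with 1718 at an unadjusted p under 0.05).

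At the other starts H3K27ac was present in some lists only. Sox14 had it in 2 of 4 E11.5 lists and 6 of 6 E17.5 lists, Helt in 2 of 4 and 0 of 6, and Gata3 in 0 of 4 and 1 of 6. For the long genes the choice of start mattered, and at the canonical start, an alternative chosen after the lists had been seen, Gata3 had H3K27ac in every list and Gata2 in 3 of 4 E11.5 and 0 of 6 E17.5 lists. CTCF, which folds chromatin into loops, was called in all 6 lists at the starts of Gata2, Gata3, Tal2 and Sox14, as at 32.7% of genes, in 3 of 6 at Nkx2-2 and in 0 of 6 at Tal1 and Helt. Its peaks were modest there (3.82 to 12.98 times the local background) and stronger at the canonical start of Gata3 (15.4 to 33.5).

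**Figure D4:**
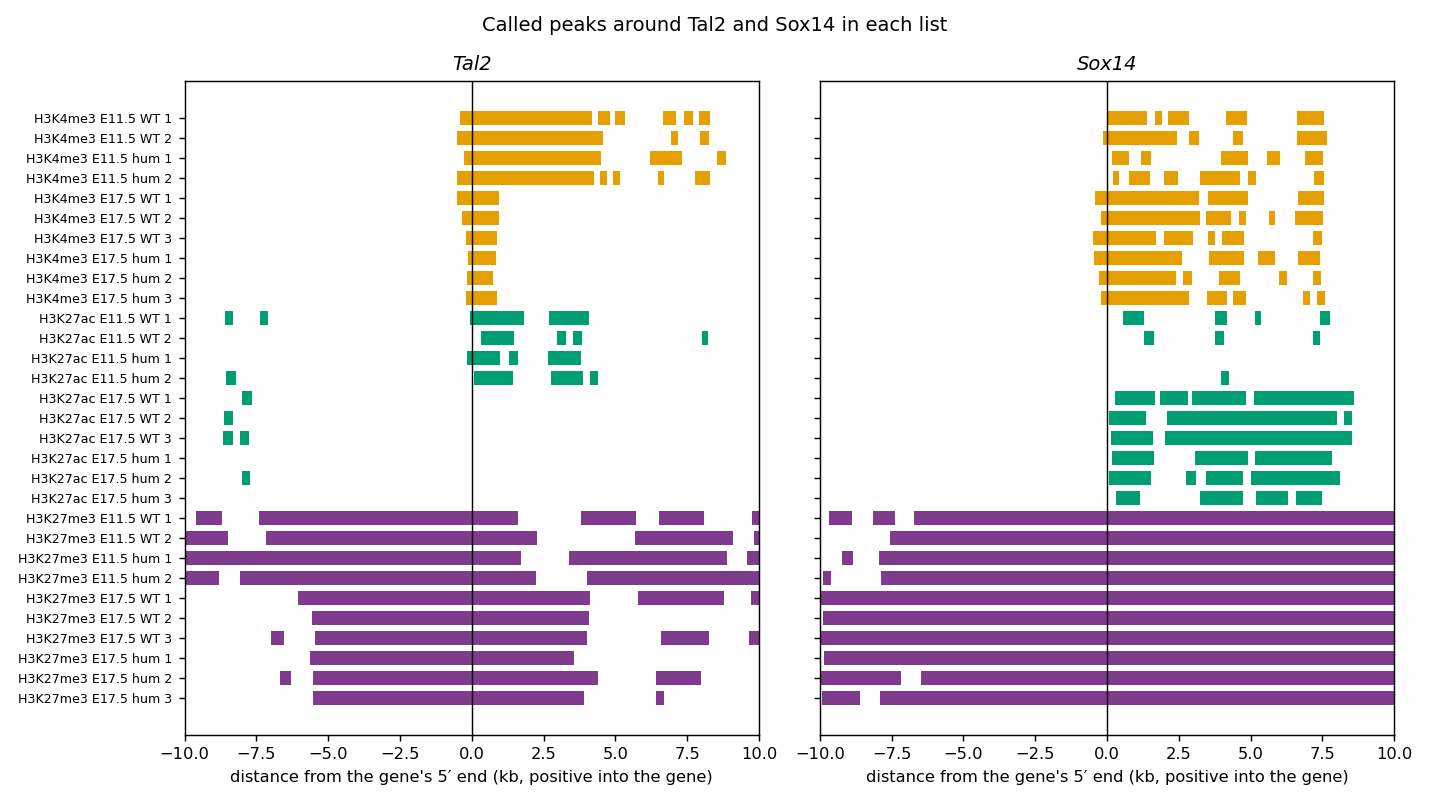
Called peaks within 10 kb of the 5′ ends of Tal2 and Sox14 in each list (WT, wild type; hum, humanized; the number is the replicate), with the distance from the 5′ end in kb, positive into the gene. Bars are called peaks of H3K4me3, H3K27ac and H3K27me3. At Tal2 the H3K4me3 bar shortens from E11.5 to E17.5 and the H3K27ac bars over the start are absent at E17.5, while at Sox14 H3K27ac covers more at E17.5 (4292 to 7992 bases) than at E11.5 (0 to 1706 bases).

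The breadth of H3K4me3 changed with stage more clearly than its presence. The widest H3K4me3 peak at the start had a median of 4779 bases at E11.5 and 1099 at E17.5 for Tal2, 7642 and 944.5 for Gata2, 8431.5 and 3390 for Tal1, and 4059.5 and 558 for Helt. For Nkx2-2 it was 3101.5 and 3043.5, for Gata3 756 and 938, and for Sox14 1029 and 3050. The Gata3 direction depended on the start used. At its canonical start the E11.5 peak was stronger, with a median of 20.6 times the local background against 3.87 at the 5′ end. The widest peak there had medians of 5448.5 and 3762.5 bases, and the ranges of the stages overlapped at both starts. The bases covered within 10 kb of the start were therefore compared by an exact permutation test (two-sided, smallest p 0.00952), a comparison added after the lists had been seen. In all, 28.1% of 14799 genes were called lower and 25.0% higher at E17.5.

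Of the selectors, 4 were called lower and 1 higher. Around Tal2 the E11.5 lists had 5607 to 6543 covered bases and the E17.5 lists 889 to 1470. Around Helt they had 4083 to 4866 and 808 to 1297, around Gata2 9939 to 11373 and 4349 to 6127, and around Tal1 8936 to 9013 and 5644 to 6063. In each of these 4 genes the stages did not overlap, and each had p = 0.00952 by the exact permutation test and an adjusted p of 0.0206. Sox14 went the other way, from a mean of 3688 to 5147 bases (adjusted p = 0.0359), but its ranges overlapped, with 4302 bases in the highest E11.5 list and 4297 in the lowest E17.5 list, and the call was lost with stricter peaks (adjusted p = 0.0659) and on leaving out any 1 of 8 lists (0.0564 to 0.0840). Within 5 kb the Sox14 stages did not overlap, at 1875 to 3256 and 3718 to 5042 bases (adjusted p = 0.0211). Gata3 (7596 to 6444 bases, adjusted p = 0.174) and Nkx2-2 (10122 to 8825, adjusted p = 0.102) were not called, although Gata3 was called lower without E17.5 humanized replicate 3 (adjusted p = 0.0333) and Nkx2-2 within 5 kb (adjusted p = 0.0368).

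H3K27ac within 10 kb split the selectors. Across all genes coverage rose, with 65.1% of 14812 called higher at E17.5 and 4.17% lower, and the E17.5 lists hold 47132 to 77419 peaks against 32418 to 37311 at E11.5. Against that background Tal2 and Tal1 lost coverage. Tal2 had 2640, 3140, 3811 and 1984 bases at E11.5 (humanized replicates 1 and 2, then wild type) and at most 676 bases in any E17.5 list, with 0 in 2 of them, and Tal1 went from 5478 to 6533 bases down to 2855 to 5281 (both adjusted p = 0.0160). Sox14 (means of 728 and 6616 bases), Gata3 (1811 and 6772) and Nkx2-2 (6499 and 10692) gained coverage, with no overlap of the stages and the same adjusted p. Gata2 (1591 and 1134 bases, adjusted p = 0.256) and Helt (208 and 0 bases, adjusted p = 0.307) were not called, and with stricter peaks Gata2 was called lower (adjusted p = 0.0295). RNA and H3K27ac thus differed in direction for Gata3, which lost RNA in both genotypes and gained coverage over the lists of both. Nkx2-2 gained coverage too, and its RNA fell in humanized mice. In wild type mice that fall passed only without E17.5 replicate 1. A gain in coverage was the common direction, at 65.1% of genes. Coverage was not tested within a genotype.

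**Figure D5:**
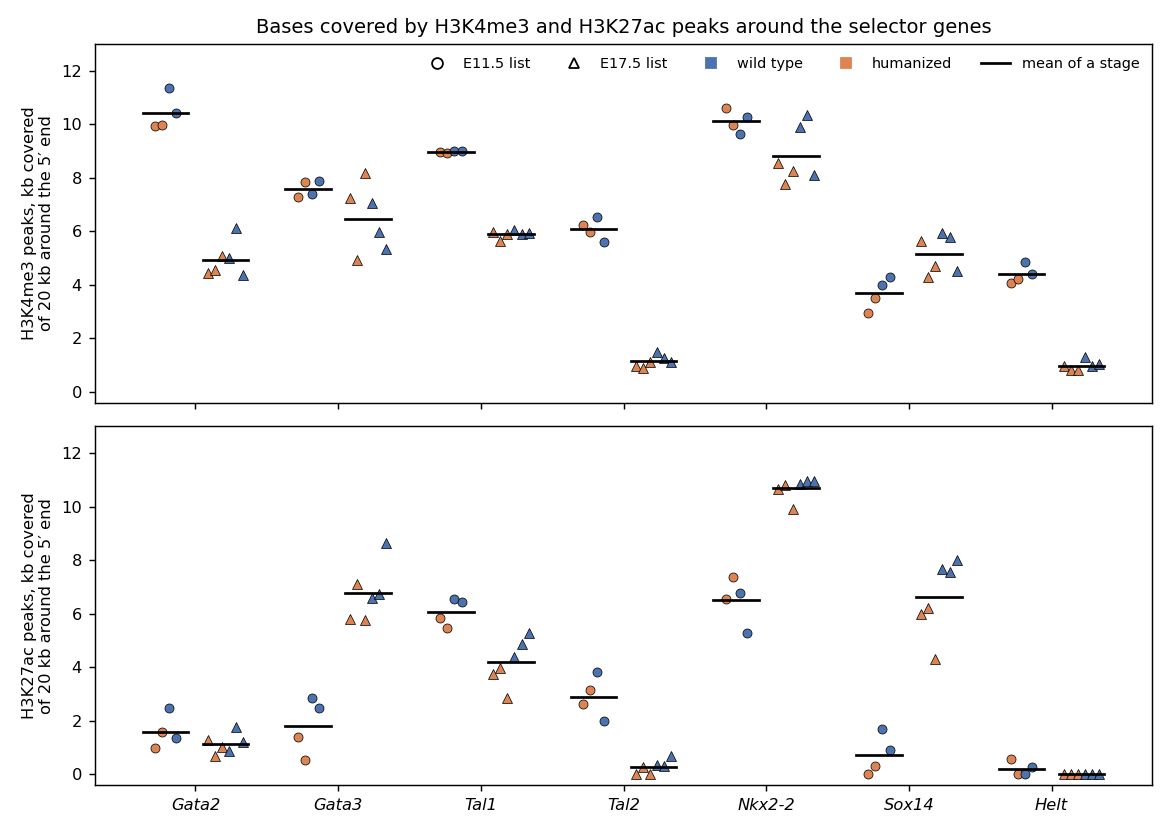
Bases within 10 kb either side of the 5′ end covered by H3K4me3 peaks (top) and by H3K27ac peaks (bottom) for each selector gene, in kb of a 20-kb window. Each point is 1 peak list, circles E11.5 and triangles E17.5, coloured by genotype, and bars are means over the 4 or 6 lists of a stage. Both marks are lower at E17.5 around Tal1 and Tal2, and H3K27ac is higher at E17.5 around Gata3, Nkx2-2 and Sox14.

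Away from starts, 53 distal H3K27ac regions lay within 100 kb of the selectors, 12 of them near Gata2, 10 near Tal2, 9 near Helt, 8 near Tal1, 6 near Gata3, 5 near Sox14 and 3 near Nkx2-2. The 3 called in every E11.5 list and no E17.5 list are those whose summits were shown above, at Tal2 (chr4:53782115-53783547), Helt (chr8:46710727-46711377) and Gata2 (chr6:88212527-88213811), a class that holds 2.03% of 80727 distal regions genome-wide. The Tal2 region was 3.71 to 6.91 times the local background over the 4 lists, that of Gata2 4.33 to 6.64 and that of Helt 2.31 to 3.85. With stricter peaks Tal2 and Gata2 still had 1 region of this class each, Helt had 0 and Tal1 had 1. Another 3 were called in every E17.5 list and no E11.5 list, against 12.4% genome-wide, 1 near Tal2 and 2 near Helt, where the stronger (10.4 to 21.7 times the local background) lies 77686 bases from the start. Helt was close to absent at E17.5, and regions within 100 kb can belong to other genes. Only 2 regions were called in every list, 1 near Gata2 and 1 near Sox14.

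Between genotypes the peaks at the starts differed at 1 selector. At E11.5, H3K27ac at Sox14 was called in both wild type lists, 3.36 and 3.85 times the local background, and in neither humanized list (p = 0.3333 by a two-sided Fisher's exact test, which 2 lists against 2 cannot go below). Such a split was seen at 1.37% of 10864 genes. The peaks were weak, at the 14.9 and 24.3 percentile of their lists, and with stricter peaks or a window of 1 kb no selector was split, while within 5 kb Gata3 was split and Sox14 was not. Sox14 RNA at E11.5 did not follow, with a log2 difference of 0.00 between genotypes. In the other 6 comparisons no selector was split: H3K27ac at E17.5 (0.198% of genes), H3K4me3 at E11.5 (0.213%) and E17.5 (0.0226%), H3K27me3 at E11.5 (2.49%) and E17.5 (0.471%), and CTCF at E17.5 (1.22%). With 3 lists against 3 Fisher's exact test cannot go below p = 0.1.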

How the data were processed

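RNA was polyA-selected and sequenced as paired reads, and per the labels and methods the authors aligned it with STAR 2.7.9a to mm39 with GENCODE M31. The deposited RNA tables hold raw counts per gene, and the count without regard to strand was used. Between 48.1% and 58.4% of reads lay on lines that name no gene and were left out. For ChIP-seq the authors aligned reads with Bowtie2 2.4.2, removed duplicate and multimapping reads, and ran MACS2 2.2.7.1 on every replicate by itself. The deposited peak lists hold a score, the −log10 of p and q values, and a fold (signal at the peak relative to its surroundings), so no read depth is known for them. The 24 input samples hold no list used here. Of the 76 samples, 16 RNA samples and 36 peak lists were analysed.

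Genes were tested with edgeR 4.0.16 (quasi-likelihood, TMM scaling, filterByExpr, R 4.3.3), separately for the groups compared, with Benjamini-Hochberg adjustment over all genes tested and a call at an adjusted p under 0.05. SE is the log2 change divided by the root of F. DESeq2 1.42.0 was an alternative. Gene symbols and starts came from GENCODE M39 on the same build, which matched 98.8% of the 56923 identifiers. Peaks counted for a gene when they lay within 2 kb of its 5′ end. Presence was compared by Fisher's exact test and covered bases by an exact permutation test over lists (scipy 1.17.1), adjusted over protein-coding genes outside chromosome 13. Levels are CPM, and no 2 libraries were identical. Each replicate is a pool from its own litter. In simulated data edgeR called 13.6% of 2-fold and 88.9% of 4-fold changes for the wild type stage comparison (18204 genes) and 53.0% and 95.0% for the humanized one (18415 genes). Only 67 genes were changed 1.5-fold, 67 were changed 2-fold and 66 were changed 4-fold there. The real stage comparisons called 10356 genes in wild type and 14601 in humanized mice. Adjustment is stricter with few changed genes, so these rates are not those of the real stage comparisons. The peak tests found 800 of 800 planted changes in presence, with 0 false calls, and 1000 of 1000 in covered bases, with 29 false calls. These were planted together, and a lone complete split of lists need not pass the adjustment.

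The 7 genes and the lists (complex partners, upstream and progenitor regulators, GABAergic output, caudal thalamus, prethalamus, erythroid, endothelial, oligodendrocyte lineage, midbrain, telencephalon, microglia and mast cells, and diencephalon) were chosen with earlier results of these data known. From each list up to 4 genes were eligible to be named, those with the largest log2 change among genes called in both stage comparisons, plus the most abundant gene of cell type lists, the 3 genes most like each selector, the 5 most like their mean pattern, and overlapping genes. Tcf4, Olig1, Foxb1 and Irx2 as a stage value were named after their values had been seen. At E17.5, wild type and humanized samples of like replicate number had r of deviations of 0.146 to 0.744, 4 of 4 over 0.1. Wild type replicates 1 and 2 were most like the humanized samples of their own number. Wild type 3 was more like humanized 4 (0.377), and wild type 4 more like humanized 2 (0.504), than the sample of like number. Pairing by replicate number was therefore not clear, and the labels give no reason for it. At E11.5, and between stages in each genotype, 2 of 4 pairs were over 0.1.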

Additional observations from a re-analysis of the deposited data

Results flagged for a closer look

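Of 28 groups of 4 samples (7 genes, 4 groups), 4 held a sample far from the others by Dixon's criterion, which chance reaches in about 1 in 20 groups. Nkx2-2 in E17.5 wild type replicate 1 was 37.0 CPM against 16.4 to 17.8 in the other 3, in the library that also held the most erythroid, endothelial and progenitor marker RNA of its stage. Nkx2-2 in E17.5 humanized replicate 2 was 15.0 CPM, below 18.9 to 19.0 in the others. Tal1 in E11.5 wild type replicate 4 was 67.7 CPM, below 72.7 to 73.7, a small step in a group with little spread. Helt in E17.5 wild type replicate 4 was 0.337 CPM, from 8 counts, where the other 3 samples had 0. The causes were not tested.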

How the results depend on the processing

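The count of selectors called was unchanged in every comparison of RNA under another normalization, a fit of all 16 samples, counts of 1 strand, DESeq2 and the replicate block (0, 0, 0, 5 and 6 for genotype at E11.5, at E17.5, the interaction, and stage in wild type and humanized mice). With the replicate number as a block, 9466 genes were called by stage in wild type and 14454 in humanized mice. Leaving out 1 replicate gave 5 to 7 selectors in wild type (7 without E17.5 replicate 1, where 13994 genes were called in place of 10356, the range over replicates being 9147 to 13994) and 6 to 7 in humanized mice and 0 in each genotype comparison. With no filter on low counts 7 were called in humanized mice, Sox14 being the added gene. The median log2 change of all genes by stage moved from -0.01 to 0.20 with no filter and 0.26 by DESeq2 in wild type, and from -0.04 to 0.25 and 0.38 in humanized mice. H3K27me3 coverage within 5 kb called 1 selector (Tal2, higher at E17.5) in place of 0, and with stricter peaks its presence test called 621 genes in place of 0. The genotype split of H3K27ac at E11.5 was 0 selectors within 1 kb and 0 with stricter peaks (−log10 q of at least 5), in place of 1, and within 5 kb the 1 selector was Gata3 in place of Sox14. Distal regions numbered 31 with stricter peaks and 33 within 50 kb, in place of 53, and 47 to 53 with 1 list left out. No called value changed direction in a tested setting, but the untested H3K27me3 coverage of Tal2 within 10 kb was lower at E17.5. Uncalled log2 differences that changed sign between settings were those by genotype of Gata2 (-0.01 to 0.17), Nkx2-2 (-0.01 to 0.18) and Sox14 (-0.27 to 0.24) at E11.5 and of Nkx2-2 (-0.41 to 0.05) and Sox14 (-0.25 to 0.20) at E17.5, and the interactions of Gata3 (-0.21 to 0.16), Sox14 (-0.38 to 0.18) and Helt (-0.74 to 3.67). Depth limits Helt and Tal2 at E17.5.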
